A study of Mus musculus with 7 samples.

Results

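Leukocytes make up a small part of the heart, and macrophages are the most numerous of them. The 42 genes described here mark leukocytes in general or macrophages in particular, and were chosen by symbol from a list of such genes, out of 12393 genes named on the array. Every probe set, the group of short probes that measures one transcript, was taken if the platform annotation gives it exactly 1 of these symbols, which found 62 probe sets and left out no gene. RNA came from heart tissue of KLF15-null mice (3 arrays) and wild-type mice (WT, 4 arrays), all labelled as male, of the strain given as C57/BL6, 3 to 4 months old and fasted for 18 h. KLF15 is a Krüppel-like zinc-finger transcription factor of heart, muscle and liver. The labels give neither the deleted part of the gene nor whether the WT mice were littermates. No fed mice were analysed here, so a difference cannot be tied to the fast.

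Heart macrophages are of at least a pair of origins. Resident ones settle before birth, renew in place and carry scavenger and uptake receptors such as CD163, the mannose receptor (Mrc1), LYVE1 and the folate receptor FOLR2. Recruited ones come from blood monocytes, which enter through the chemokine receptor CCR2 and bring high levels of lysozyme, galectin-3 and CD14. The genes were therefore grouped by textbook role as pan-leukocyte (9 genes), shared by macrophages (14), NADPH oxidase subunits (4), resident-type (7) and recruited-type (8). The boundary is not sharp, since monocytes also express Cx3cr1 and F13a1, lymphatic endothelium expresses Lyve1, and platelets carry Pf4.

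In KLF15-null hearts 23 of the 42 genes were higher, 2 were lower (C1qa and C1qb), 13 did not pass the test and 4 were too dim to be tested. These counts are to be read against the whole array, where 25.5% of 8321 tested genes were higher and 20.4% lower at an adjusted p under 0.05. The members were chosen with earlier results of these data known, so their counts are a description and not a test of an excess. Recruited-type genes rose in 6 of 8 cases, with a median difference of 1.28 on the log2 scale (differences here are always KLF15-null minus WT), and pan-leukocyte genes in 6 of 9 cases, with a median of 1.08. Resident-type genes rose in 3 of 7 cases, with a median of 0.31, and Cd163, Mrc1, Folr2 and Cx3cr1 were not among them. The medians are over all genes of a class, dim ones included, and the median over all 42 was 0.64, against 0.0085 over the 12320 genes measured in the same way. Whether recruited-type and resident-type genes differ from each other was not tested. In bulk tissue, more cells of a type and more RNA per cell cannot be told apart.

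Each gene was represented by its brightest probe set (by the mean of all 7 arrays) of those that reached the filter level (log2 5.74, the 40th percentile of all probe sets) and are not of the _x_at kind. An _x_at probe set holds probes that may bind other genes, an _s_at probe set is shared by several transcripts, and the rest are called gene-specific here. Of the 23 higher genes 3 (Coro1a, Ms4a6d and Clec4n) had a WT mean under the filter level and reached the test through their KLF15-null values alone. Those 3 had to differ to be tested, and background may limit the size of their difference. Ms4a6d and Clec4n are 2 of the 6 higher recruited-type genes, and Coro1a is 1 of the 6 higher pan-leukocyte genes. No higher resident-type gene was of this kind, so the class counts are not on an equal footing. With no filter, all 42 genes were tested, and 22 were higher and 1 was lower, against 18.5% and 14.3% of 12320 genes in that fit.

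The targeted gene stood at log2 8.68, 8.98, 8.73 and 9.08 on the WT arrays and at 6.52, 6.23 and 6.24 on the KLF15-null arrays, with a difference of -2.54 (SE 0.13, adjusted p = 1.26e-06). Since the deleted part is unknown, its single probe set may lie outside it and then checks nothing about the labels. Array medians lay between 6.22 and 6.33 in log2 units. Heart muscle markers were the brightest of all lists, with means between 13 and 13.2 on WT and 13.3 and 13.6 on KLF15-null arrays. On all 7 arrays Xist, the RNA of the inactive X chromosome, stood at log2 8.57 to 9.94 on its brightest probe set, while gene-specific probe sets of Usp9y, Uty, Kdm5d and Eif2s3y, which lie on the Y chromosome, had mean levels at or below the 27.3th percentile. That goes against the male label on both sides of the comparison alike. The arrays are numbered as separate samples, but nothing states that each came from its own animal, so p-values measure the spread between arrays. Over the whole array 46.0% of tested genes were past the threshold in either direction.

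Promoters are shown for 5 members whose results differ, chosen after their values were seen: Cd53, Ctss and Lgals3 rose, C1qb fell on its gene-specific probe set, and Mrc1 did not pass the test. PU.1, the product of the member Spi1, is the factor that sets up macrophage and B-cell gene expression, and binds sites with the core GAGGAA. Krüppel-like factors and their Sp relatives bind GC-rich sites such as the GC box GGGCGG. The 250 bases before the RefSeq start site were searched for both cores on both strands, and matches are in capitals (a match on the opposite strand reads TTCCTC or CCGCCC). The sequences run 5′ to 3′ on the strand of the gene, from RefSeq on GRCm38.p6.
Cd53, chr3:106790150-106790399, minus strand: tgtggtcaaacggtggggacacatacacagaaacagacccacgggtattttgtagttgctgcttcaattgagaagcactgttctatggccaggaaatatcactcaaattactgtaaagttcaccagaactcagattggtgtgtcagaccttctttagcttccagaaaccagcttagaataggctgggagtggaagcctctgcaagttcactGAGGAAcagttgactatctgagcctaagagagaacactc
Ctss, chr3:95526536-95526785, plus strand: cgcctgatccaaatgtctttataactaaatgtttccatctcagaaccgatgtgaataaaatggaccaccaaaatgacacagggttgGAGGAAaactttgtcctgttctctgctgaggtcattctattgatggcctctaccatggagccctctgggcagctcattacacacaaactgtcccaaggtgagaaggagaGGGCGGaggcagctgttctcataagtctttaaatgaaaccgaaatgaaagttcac
Lgals3, chr14:47373610-47373859, plus strand: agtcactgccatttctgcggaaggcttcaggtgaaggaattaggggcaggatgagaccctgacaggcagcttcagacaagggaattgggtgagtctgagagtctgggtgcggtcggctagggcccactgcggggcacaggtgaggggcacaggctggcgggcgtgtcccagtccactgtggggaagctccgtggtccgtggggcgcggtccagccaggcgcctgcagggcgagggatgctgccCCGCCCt
C1qb, chr4:136886201-136886450, minus strand: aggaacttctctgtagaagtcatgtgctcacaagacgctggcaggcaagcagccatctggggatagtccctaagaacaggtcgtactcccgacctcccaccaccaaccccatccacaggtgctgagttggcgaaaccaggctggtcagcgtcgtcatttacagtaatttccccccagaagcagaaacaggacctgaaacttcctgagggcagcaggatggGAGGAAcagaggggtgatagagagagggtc
Mrc1, chr2:14229164-14229413, plus strand: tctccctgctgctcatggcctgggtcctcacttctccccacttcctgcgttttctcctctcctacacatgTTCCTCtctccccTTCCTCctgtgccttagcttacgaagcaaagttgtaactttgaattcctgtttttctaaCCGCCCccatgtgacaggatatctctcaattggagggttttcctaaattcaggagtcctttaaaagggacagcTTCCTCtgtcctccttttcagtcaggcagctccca

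The PU.1 core begins 39 bases before the start of Cd53, 30 before that of C1qb and 164 before that of Ctss, and occurs 3 times before Mrc1, while the window of Lgals3 holds only a GC box. RefSeq promoters were found for 30 of the 42 genes, in 36 windows, some of which overlap because a gene has several starts. GAGGAA was in 17 of these windows (47.2%), against 23.3% of all 32851 promoter windows searched. Among windows of higher genes it was in 9 of 18 and among windows of genes not past the threshold in 6 of 13. GGGCGG was in 9 member windows (25%), against 32.7% of all. A match is a description of letters and not a binding site.

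**Figure D1:**
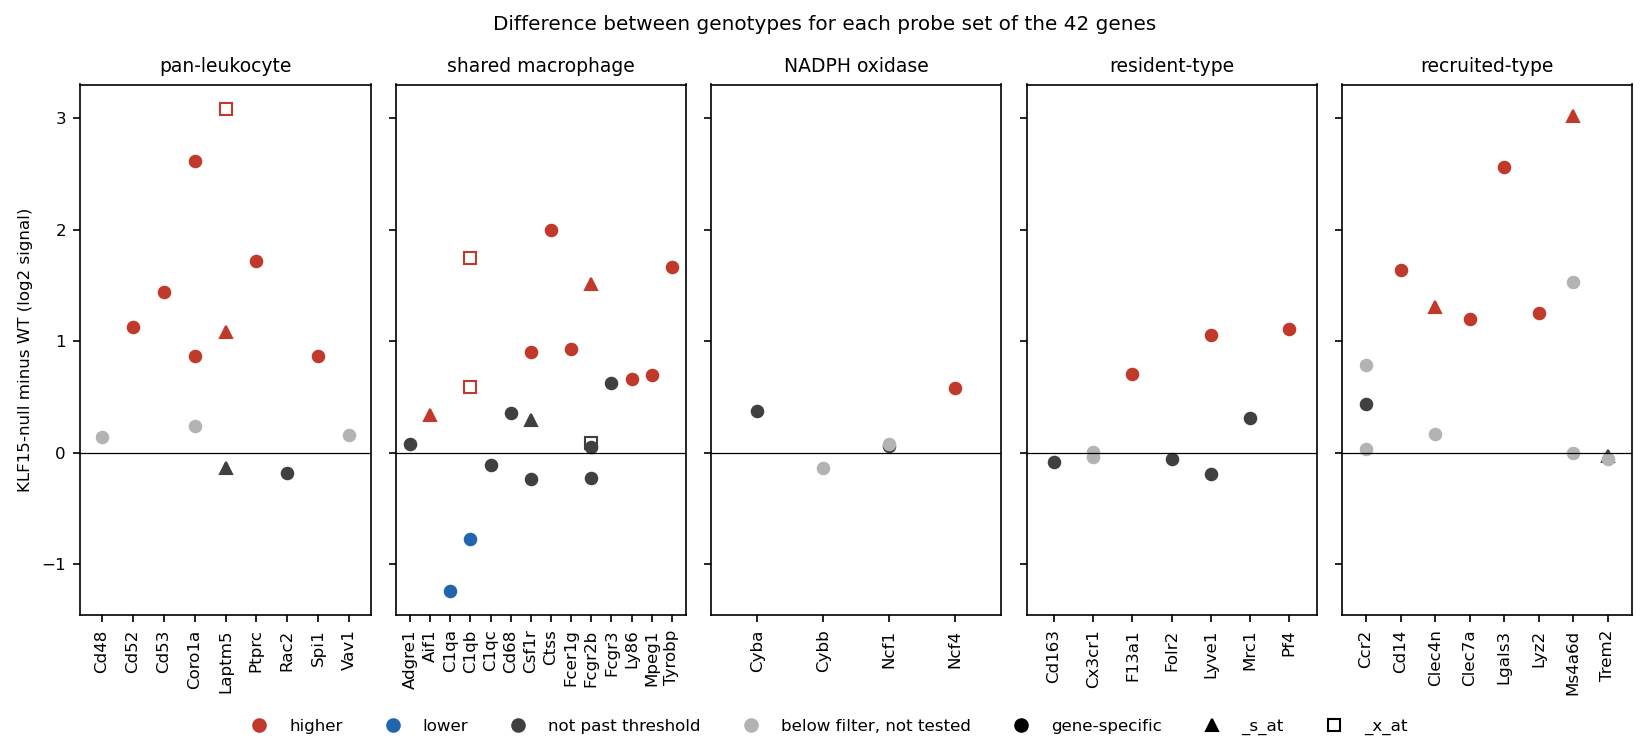
Difference between genotypes (KLF15-null minus WT, log2 signal, vertical axis) for each of the 62 probe sets, grouped by gene and class. Circles are gene-specific, triangles _s_at and open squares _x_at probe sets, with color giving the limma result. In the recruited-type panel 6 genes have a red symbol, and the blue symbols, for probe sets that fell, belong to C1qa and C1qb.

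Among recruited-type genes Ms4a6d, a membrane protein of the CD20 family found on macrophages, had the largest difference. It stood at log2 4.88, 5.19, 5.05 and 5.40 in WT and at 8.33, 8.37 and 7.75 in KLF15-null hearts, a rise of 3.02 (SE 0.17, adjusted p = 1.90e-06) on an _s_at probe set. A dimmer gene-specific probe set, below the filter, had means of 4.42 and 5.95, and another stayed at 3.5 in both groups. Lgals3 codes for galectin-3, a carbohydrate-binding protein that activated macrophages secrete. Its signal was 5.96, 6.68, 6.05 and 7.30 on the WT arrays and 9.25, 9.43 and 8.48 on the KLF15-null arrays, a rise of 2.56 (SE 0.33, adjusted p = 0.000175), 5.89-fold. The WT arrays varied widely, and all lay below the lowest KLF15-null array.

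Cd14, the co-receptor for bacterial lipopolysaccharide, measured 6.17, 6.25, 6.42 and 6.75 in WT and 8.39, 7.85 and 7.88 in KLF15-null hearts, a rise of 1.64 (SE 0.17, adjusted p = 4.65e-05). Lyz2, the lysozyme of monocytes and macrophages, was the brightest of the class, at 9.28, 9.36, 9.88 and 10.18 against 11.38, 10.65 and 10.75, and rose by 1.25 (SE 0.25, adjusted p = 0.00232). Clec4n and Clec7a code for the fungal sugar receptors dectin-2 and dectin-1. Clec4n stood at 5.77, 5.65, 5.2 and 5.74 in WT and 7.20, 7.08 and 6.43 in KLF15-null hearts, and rose by 1.31 (SE 0.20, adjusted p = 0.000429) on an _s_at probe set, while its gene-specific one, below the filter, overlapped at means of 4.31 and 4.48. For Clec7a the WT values were 6.81, 6.63, 6.12 and 6.90 and the KLF15-null values 8.25, 8.11 and 7.08, a rise of 1.20 (SE 0.28, adjusted p = 0.00564). KLF15-null array 3 was the lowest of its group for both dectins, and for Clec7a it lay close to the highest WT array.

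The defining receptor of recruited monocytes did not pass. Ccr2 stood at 6.38, 6.22, 5.51 and 6.37 in WT and 6.69, 6.55 and 6.42 in KLF15-null hearts, with a difference of 0.44 (SE 0.20, adjusted p = 0.0897) with the groups just apart. It passed after quantile normalization (0.51, adjusted p = 0.0418) and after median centring of the arrays (0.53, adjusted p = 0.0403). A second Ccr2 probe set, below the filter, had values of 4.6 to 4.76 in WT and 5.99, 5.55 and 4.76 in KLF15-null hearts, and the remaining one stayed between 4.67 and 4.77 on all arrays. Trem2, a lipid-sensing receptor of macrophages that take up debris, differed by -0.026 (SE 0.082, adjusted p = 0.811) on an _s_at probe set. A gene-specific one, below the filter, had means of 5.05 in WT and 4.99 in KLF15-null hearts. On the _s_at probe set of Trem2 4 of the 7 values, 3 of them WT, were the same number to the last deposited digit. Such repeats between arrays occurred in 22 of the 62 member probe sets and in 47.3% of all probe sets.

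Resident-type genes fell into genes that rose and genes with no detectable difference. Pf4, the platelet factor 4 chemokine, which resident macrophages also make, measured 8.02, 8.27, 8.67 and 8.67 in WT and 9.40, 9.75 and 9.40 in KLF15-null hearts, a rise of 1.11 (SE 0.18, adjusted p = 0.000681). F13a1, the A subunit of coagulation factor XIII, stood at 8.30, 8.57, 8.91 and 8.86 against 9.30, 9.38 and 9.42, and rose by 0.71 (SE 0.15, adjusted p = 0.00350). The KLF15-null arrays were nearly level for F13a1, with an SD of 0.06, against 0.28 in WT. Lyve1, the hyaluronan receptor, was 6.86, 7.63, 7.48 and 7.42 in WT and 8.58, 8.09 and 8.54 in KLF15-null hearts on its brighter probe set, a rise of 1.05 (SE 0.19, adjusted p = 0.00138). On its other gene-specific probe set Lyve1 was at 6.60 to 7.07 in WT and at 6.61, 6.33 and 6.83 in KLF15-null hearts, with a difference of -0.19 (adjusted p = 0.296).

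For Cd163, Mrc1 and Folr2 the groups overlapped. Cd163, the haemoglobin scavenger receptor, stood at 5.42, 5.80, 5.92 and 6.21 in WT and 5.56, 5.66 and 6.04 in KLF15-null hearts, with a difference of -0.083 (SE 0.18, adjusted p = 0.725). Mrc1 was at 7.60, 7.86, 8.15 and 8.46 against 8.46, 8.38 and 8.15, a difference of 0.31 (SE 0.19, adjusted p = 0.196), and it passed without WT array 4 (0.46, adjusted p = 0.0496). Folr2 was at 6.06 to 6.51 in WT and 6.19, 6.11 and 6.31 in KLF15-null hearts, with a difference of -0.053 (SE 0.11, adjusted p = 0.716). Cx3cr1, the fractalkine receptor, lay below the filter on both of its probe sets, and on the brighter one all 4 WT arrays had the identical value of 5.34. Without Cx3cr1 and F13a1, which monocytes share, the class had 2 of 5 genes higher and again a median of 0.31.

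**Figure D2:**
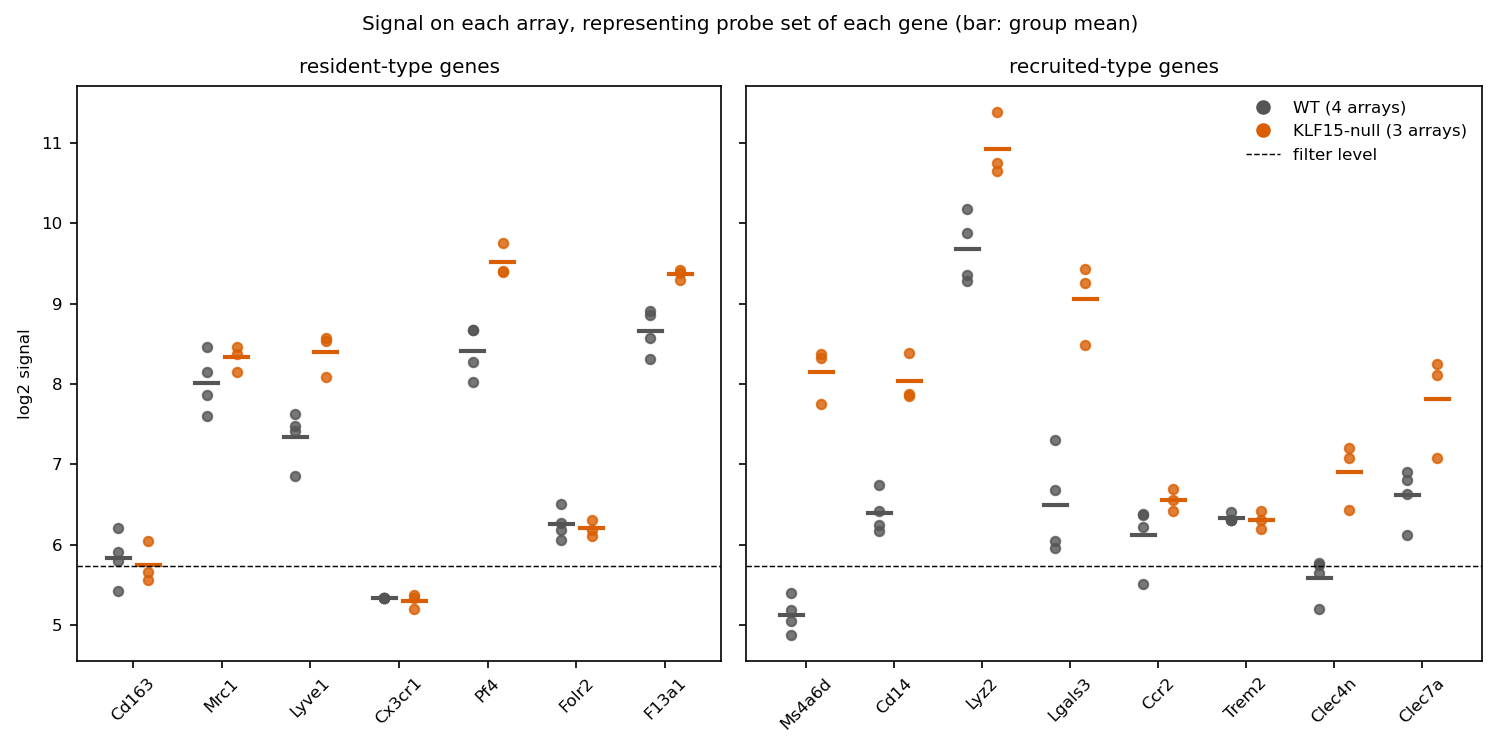
Log2 signal (vertical axis) on each array for the resident-type and the recruited-type genes, with WT in grey and KLF15-null in orange, a bar for each group mean and a dashed line for the filter level of 5.74. The groups are apart for Pf4, F13a1 and Lyve1 on the left and for all recruited-type genes but Trem2 on the right.

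Pan-leukocyte genes are expressed by nearly all white blood cells. Ptprc codes for CD45, the phosphatase that defines leukocytes, and it measured 6.50, 6.43, 6.35 and 6.73 in WT and 8.25, 8.54 and 7.86 in KLF15-null hearts, a rise of 1.72 (SE 0.16, adjusted p = 2.34e-05) and 3.29-fold. The tetraspanin gene Cd53 stood at 6.13, 6.19, 6.3 and 6.78 against 8.32, 7.94 and 7.12, a rise of 1.44 (SE 0.26, adjusted p = 0.00133). Cd52, a small glycoprotein of the leukocyte surface, was at 6.83, 6.88, 6.74 and 7.43 against 8.48, 8.22 and 7.59 and rose by 1.13 (SE 0.22, adjusted p = 0.00226). In Cd53 and Cd52 alike WT array 4 and KLF15-null array 3 came closest to the other group.

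Coro1a, an actin regulator of leukocytes, had the largest difference of the pan-leukocyte class. Its representing probe set stood at 4.86, 5.06, 4.86 and 5.38 in WT and 7.76, 7.80 and 7.41 in KLF15-null hearts, a rise of 2.62 (SE 0.15, adjusted p = 1.84e-06), and a second tested one by 0.87 (adjusted p = 0.00617). Both had WT means below the filter level (5.04 and 5.53), and the remaining Coro1a probe set, too dim to test, overlapped between groups at means of 3.87 and 4.10. Spi1, which codes for PU.1, was at 5.70, 5.72, 5.87 and 5.79 against 6.93, 6.51 and 6.47, a rise of 0.87 (SE 0.12, adjusted p = 0.000210). Its WT mean of 5.77 lay close to the filter level. Laptm5, a lysosomal membrane protein of blood cells, gave different answers by probe set, as given with the other such genes. Rac2, the GTPase of leukocyte movement and of the oxidase, stood at 6.50, 6.52, 6.50 and 6.80 in WT and at 6.46, 6.36 and 6.37 in KLF15-null hearts, with a difference of -0.18 (SE 0.10, adjusted p = 0.144). Cd48 and Vav1 were below the filter, with means of 5.01 and 3.92 in WT and 5.15 and 4.09 in KLF15-null hearts.

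Of the 14 genes shared by macrophages 7 were higher and 2 lower, against 25.5% and 20.4% of all tested genes. Ctss, the lysosomal protease cathepsin S, rose most, from 7.86, 8.18, 8.06 and 9.05 in WT to 10.48, 10.59 and 9.78 in KLF15-null hearts, by 2.0 (SE 0.29, adjusted p = 0.000343), 3.99-fold. Tyrobp (DAP12) and Fcer1g (the Fc receptor γ chain) are the signalling adaptors that many myeloid receptors share. Tyrobp stood at 7.32, 7.37, 7.42 and 7.96 against 9.53, 9.23 and 8.78, a rise of 1.66 (SE 0.20, adjusted p = 0.000122). For Fcer1g the values were 6.75, 7.01, 7.20 and 7.60 against 8.59, 7.96 and 7.65, a rise of 0.93 (SE 0.24, adjusted p = 0.00985), with WT array 4 only just below KLF15-null array 3. Of the receptors that use Fcer1g, Fcgr3 differed by 0.62 with overlapping groups (adjusted p = 0.0535), and by 0.81 without WT array 4 (adjusted p = 0.0148).

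Smaller rises were found for Ly86 (0.66, adjusted p = 0.0309), Mpeg1, the pore-forming perforin-2 of macrophages (0.70, adjusted p = 0.0473), and Aif1, the calcium-binding protein IBA1 (0.34, adjusted p = 0.0316). That of Aif1 was on an _s_at probe set, the only one of the gene. In Ly86 and Mpeg1 the groups overlapped. The calls of both were lost without WT array 1, 2 or 3 or KLF15-null array 1 or 2, taken singly, and that of Aif1 without WT array 1, 2 or 3 or KLF15-null array 2. The classical macrophage antigens Adgre1 (F4/80) and Cd68 did not pass. Adgre1 was at 7.83 to 8.44 in WT and 8.12 to 8.23 in KLF15-null hearts, with a difference of 0.083 (SE 0.14, adjusted p = 0.656). Cd68, a lysosomal glycoprotein, was at 5.56, 5.70, 5.88 and 6.79 against 6.81, 6.11 and 6.11, a difference of 0.36 (adjusted p = 0.321) that became 0.63 without WT array 4 (adjusted p = 0.0298).

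C1q starts the classical complement pathway, and its A, B and C chains are coded by neighbouring genes, which macrophages express together. C1qa fell, from 8.07, 8.36, 8.45 and 9.07 in WT to 7.40, 7.01 and 7.33 in KLF15-null hearts, with a difference of -1.24 (SE 0.21, adjusted p = 0.000940), with all KLF15-null values below all WT values. The gene-specific probe set of C1qb stood at 8.15, 8.78, 8.74 and 9.37 against 8.37, 7.57 and 8.03, a difference of -0.77 (SE 0.27, adjusted p = 0.0387), with overlapping groups. That call was lost without WT array 2, 3 or 4 or KLF15-null array 2 or 3, taken singly, with adjusted p between 0.0773 and 0.124, after median centring (adjusted p = 0.0579) and with no filter (adjusted p = 0.0521). C1qc was at 7.39, 7.60, 7.60 and 8.17 in WT and 7.83, 7.44 and 7.47 in KLF15-null hearts, with a difference of -0.11 (SE 0.18, adjusted p = 0.647). These values leave out the _x_at probe sets of C1qb, which were higher and are given with the other genes whose probe sets differ.

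The phagocyte NADPH oxidase makes superoxide in the phagosome from membrane subunits (Cybb and Cyba) and cytosolic ones (Ncf1 and Ncf4). Ncf4 (p40phox) stood at 5.76, 5.65, 5.75 and 5.79 in WT and 6.48, 6.36 and 6.11 in KLF15-null hearts, a rise of 0.58 (SE 0.10, adjusted p = 0.000856). Its WT mean of 5.739 lay only just above the filter level of 5.737. Cyba (p22phox), which other cell types also express, was at 8.18, 8.30, 8.49 and 8.49 against 9.22, 8.16 and 8.84, a difference of 0.38 (adjusted p = 0.179), and of 0.67 without KLF15-null array 2 (adjusted p = 0.00364). Ncf1 (p47phox) differed by 0.056 (adjusted p = 0.791). Cybb, the catalytic subunit, was dim in both groups, with means of 4.33 and 4.19, and was not tested.

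Of the 6 members with more than 1 tested probe set, 5 had probe sets with different results, against 70.3% of 2748 such genes on the whole array. The pairs are described and not tested, since they stand out by the difference itself. Laptm5 stood at 6.63, 6.51, 6.78 and 7.18 in WT and 9.70, 10.12 and 9.76 in KLF15-null hearts on its _x_at probe set, a difference of 3.08. On the _s_at probe set that represents it the values were 6.54, 6.89, 6.83 and 6.86 against 8.49, 7.54 and 7.55, a rise of 1.08 (SE 0.22, adjusted p = 0.00239), and on another _s_at one the difference was -0.14 (adjusted p = 0.220). When KLF15-null array 1 was left out, that last probe set was the brighter one and stood for Laptm5, with a difference of -0.074 (adjusted p = 0.514).

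On its _x_at probe sets C1qb was higher in KLF15-null hearts, the reverse of its gene-specific one. The first read 5.97, 6.77, 6.55 and 7.36 in WT and 7.69, 8.65 and 8.88 in KLF15-null hearts, a rise of 1.74 (adjusted p = 0.00208), and the second rose by 0.59 (adjusted p = 0.00869). Csf1r is the receptor for the growth factor on which macrophages depend. Its brightest probe set stood at 9.84, 9.87, 10.01 and 10.30 against 10.91, 11.38 and 10.42, a rise of 0.90 (SE 0.21, adjusted p = 0.00590) that quantile normalization took to 0.57 (adjusted p = 0.0521). Its other probe sets differed by 0.30 (adjusted p = 0.140) and -0.24 (adjusted p = 0.128), and the mean of all 3 by 0.32 (adjusted p = 0.101). Fcgr2b, the inhibitory Fc receptor, differed by 0.052 on the probe set that represents it (adjusted p = 0.730), while its _s_at one rose by 1.51 (adjusted p = 0.000210) and a dimmer gene-specific one differed by -0.23 (adjusted p = 0.444).

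Taken apart, 3 of the 4 member _x_at probe sets were higher (Laptm5 and both of C1qb), and that of Fcgr2b differed by 0.084 (adjusted p = 0.773). Over the whole array 60.5% of 1074 tested _x_at probe sets were higher and 7.91% lower, so a majority of higher calls is the background for this kind. Of the member _s_at probe sets 5 of 8 were higher, against 37.3% of all, and of the tested gene-specific ones 20 of 37, against 22.7%. With both _s_at and _x_at probe sets left out, an alternative chosen after seeing the data, 19 of 33 tested genes were higher and 2 lower. Of all 8050 genes tested in that fit 23.9% were higher and 21.7% lower.

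**Figure D3:**
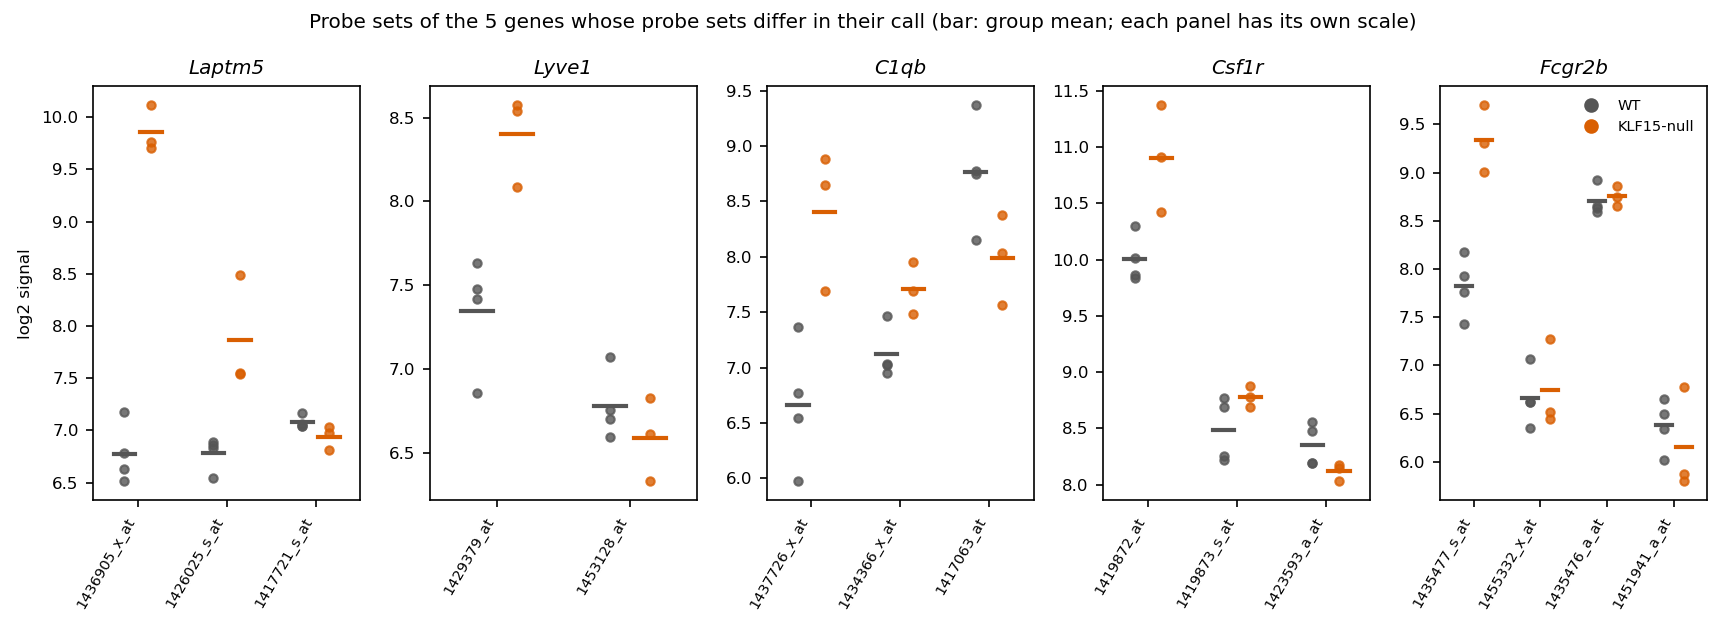
Log2 signal (vertical axis, with its own scale in each panel) on each array for all tested probe sets of Laptm5, Lyve1, C1qb, Csf1r and Fcgr2b, with WT in grey, KLF15-null in orange and a bar for each group mean. In each panel the leftmost probe set is higher in KLF15-null hearts and the rightmost is not.

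Single arrays stood out in both groups. WT array 4 was the highest WT array for 28 of the 38 tested genes (73.7%), but for 17.6% of all tested genes, and KLF15-null array 1 was the highest of its group for 24 (63.2%, against 43.0% of all). As a mean over the 14 shared macrophage genes WT array 4 stood at log2 8.24, inside the KLF15-null range of 7.95 to 8.45, while the other WT arrays were at 7.5 to 7.66. For recruited-type genes the class means were 6.33 to 6.87 in WT and 7.62 to 8.23 in KLF15-null hearts, and for pan-leukocyte genes 5.76 to 6.11 and 6.60 to 7.11. Resident-type means were closer, at 6.80 to 7.35 and 7.53 to 7.60. Without WT array 4, 26 genes were higher and 1 lower, against 22.5% and 17% of all tested genes in that fit. Without KLF15-null array 1 the counts were 20 and 2, against 23% and 22.2%.

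**Figure D4:**
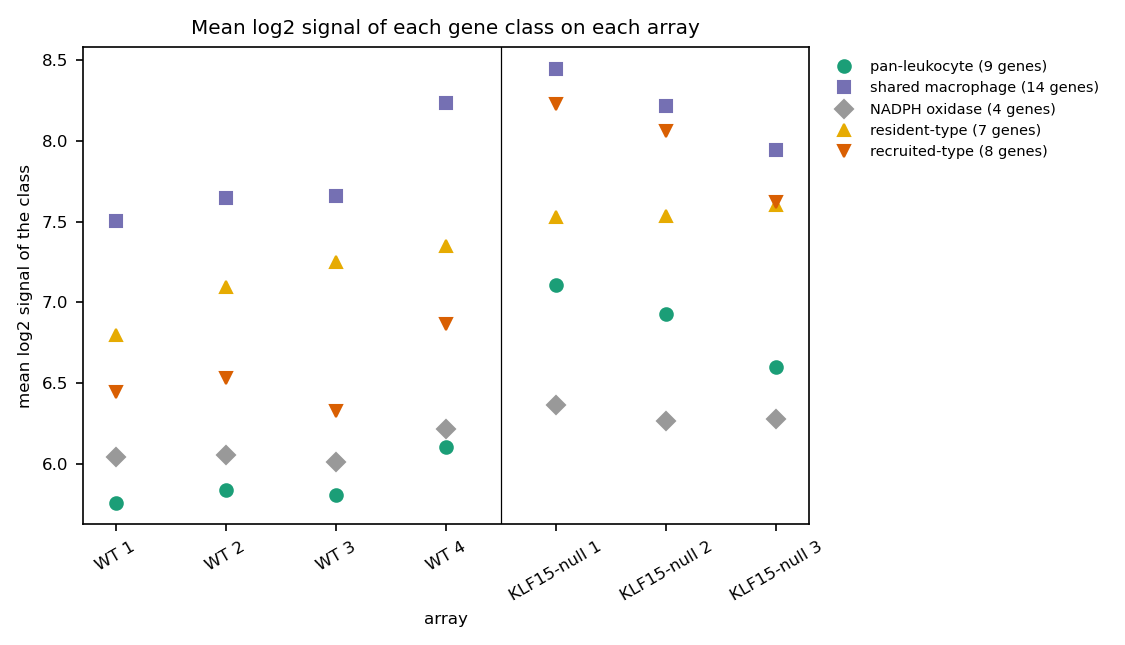
Mean log2 signal (vertical axis) over the genes of each class, dim ones included, on each of the 7 arrays. WT array 4 is the highest WT array in all 5 classes, and its shared macrophage mean of 8.24 lies among the KLF15-null arrays.

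Without overlap, all KLF15-null arrays lay above all WT arrays for 22 of the 38 tested genes and below them for 2 (C1qa and Rac2), against 26.4% and 22.3% of tested genes on the whole array. Of the 25 member calls, 20 held when each of the 7 arrays was left out in turn. The same count was not made for all called genes, so it cannot be read as a trait of the members. Scaling changed the background counts: after median centring of the arrays 25 members were higher and 1 lower, while 32.1% of all tested genes were higher and 15.3% lower, and the median difference of all tested genes moved from 0.011 to 0.10.

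Other genes of the same cells were taken from lists of textbook markers, and counts over a list use the probe set that represents each gene. All list counts stand beside 25.5% higher and 20.4% lower among all tested genes. Of 7 tested monocyte genes 4 rose and 1 fell. Chil3, a chitinase-like protein, rose by 5.48, from 4.16 to 9.64 in mean log2 signal (adjusted p = 9.46e-08), Plac8 by 2.15 and Vcan, the matrix proteoglycan versican, by 1.64, while Nr4a1, a nuclear receptor needed for patrolling monocytes, fell by 0.80 (adjusted p = 0.00129). The WT means of Chil3, Plac8 and Vcan (4.16, 5.18 and 5.58) lay below the filter level. These genes therefore reached the test through their KLF15-null values alone and had to differ to be tested. The count for this list is thus not on an equal footing with the share over all genes. The remaining monocyte gene that rose, Fn1, had a WT mean of 8.385 and differed by 1.245 (adjusted p = 0.00203). Which cells of the heart gave the signal of Fn1, Vcan and Nr4a1 was not tested. Leukocyte signalling and integrin genes rose in 7 of 13 cases and fell in none, with Plek (pleckstrin) at 2.0, Cd44 at 1.67 and Syk, the kinase that Tyrobp and Fcer1g recruit, at 0.85. A second Syk probe set differed by 0.22 (adjusted p = 0.0992), and one below the filter by -0.28. Dock2, also among the 7 of this list, had a WT mean just below the filter level. Limma called no gene of that list lower, and Cd37 stood at -0.31 with an unadjusted p of 0.0290 (adjusted p = 0.0558).

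Among 14 other macrophage genes 1 rose, the scavenger receptor Msr1 (0.62, adjusted p = 0.0136, and 2.93 on a dimmer probe set whose WT mean of 5.19 lay below the filter level), and 1 fell, Apoe (-1.01, adjusted p = 0.0315). The remaining 12, Stab1, Vsig4, Siglec1 and Mertk among them, did not pass. Of 9 tested myeloid transcription factors Cebpb (1.54), Id2 (1.49), Cebpd (1.22) and Irf8 (0.56) rose and the liver X receptor gene Nr1h3 fell (-0.33). Other heart cells express Id2, Cebpb and Cebpd too, the WT mean of Id2 (5.53) lay below the filter level, and further probe sets of Id2 (-0.25) and Cebpb (-0.32) did not pass. Csf1, the ligand of Csf1r, was the 1 growth factor or receptor of 6 that rose, by 0.37 (adjusted p = 0.00710), with its other 2 probe sets at -0.11 and -0.028. Kitl, the ligand of the receptor KIT, was lower on a probe set that does not represent it (-1.95, adjusted p = 4.07e-06). Of the oxidase partners only Rac1 was tested, at -1.39 (adjusted p = 0.000917) on an _s_at probe set and -0.015 on a gene-specific one.

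Markers of other leukocytes were mostly dim. Of the neutrophil markers 6 of 10 on the array were tested, and S100a8 and S100a9, which monocytes also carry, rose by 2.19 and 1.41, while Ngp, Mmp8, Elane and Cxcr2 did not pass. Of 9 T cell markers 3 were tested and Cd4 was lower by 0.23 (adjusted p = 0.0490). On the probe sets that represent them none of 3 B cell, 1 NK cell and 2 mast cell markers passed with limma, and none had an unadjusted p under 0.05. A further probe set of the B cell marker Ighm differed by 0.24 (unadjusted p = 0.0270, adjusted p = 0.0527). The 1 dendritic cell marker tested, Zbtb46, fell by 0.24 (adjusted p = 0.0451). The part of the other leukocytes in the rise of Ptprc or Coro1a was not tested.

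Other markers bear on members that are not specific to macrophages. Beside Lyve1, lymphatic endothelium markers rose in 2 of 3 tested cases, Pdpn (podoplanin) by 1.62 (adjusted p = 2.62e-06) and Flt4 by 0.39 (-0.039 on a second probe set), and Prox1, the defining factor, was below the filter at 4.89 in WT and 4.62 in KLF15-null hearts. The remaining tested marker, Reln, went the other way, at 6.04 on every WT array and at 5.79, 5.92 and 5.87 in KLF15-null hearts. It differed by -0.19 (adjusted p = 0.0501). The list's mean was 6.62 to 6.68 on WT and 7.23 to 7.29 on KLF15-null arrays, with Pdpn the gene that differed most. Beside Pf4, the platelet gene Ppbp rose by 1.10 (adjusted p = 0.00151), while Gp9, Gp1bb and Itga2b did not pass, with list means of 6.42 to 6.56 and 6.62 to 6.90. The part of lymphatic vessels in the rise of Lyve1 and of platelets in that of Pf4 was not tested. Of 6 blood endothelium markers Pecam1 (-2.24) and Emcn (-1.44) fell, and a probe set of Egfl7 that does not represent it was higher (0.33, adjusted p = 0.0222). Of 8 fibroblast markers Dcn (-1.25) and Lum (-1.38) fell and Pdgfra rose by 0.53, and a second probe set of Col1a1 was higher (0.45). Of 6 smooth muscle and pericyte markers Myh11 fell (-1.44) and Pdgfrb rose by 1.71, though a dimmer Pdgfrb probe set was lower (-0.43). Rgs5 differed by 0.29 on the probe set that represents it (adjusted p = 0.109) and was lower on both others (-3.82 and -2.81, adjusted p = 8.64e-07 and 9.98e-06). Of 8 heart muscle markers Nppa rose by 1.71, while dimmer probe sets of Myh6 (-5.34, adjusted p = 2.70e-06) and Pln (-2.56, adjusted p = 1.39e-05) were lower and those that represent them did not pass (0.21 and 0.13). The single tested red cell marker, Alas2, and lymph node marker, Cxcl13, did not pass (adjusted p = 0.178 and 0.370). A second Cxcl13 probe set, below the filter, stood at 4.18 to 4.51 in WT and 5.28 to 6.40 in KLF15-null hearts, with the groups apart.

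**Figure D5:**
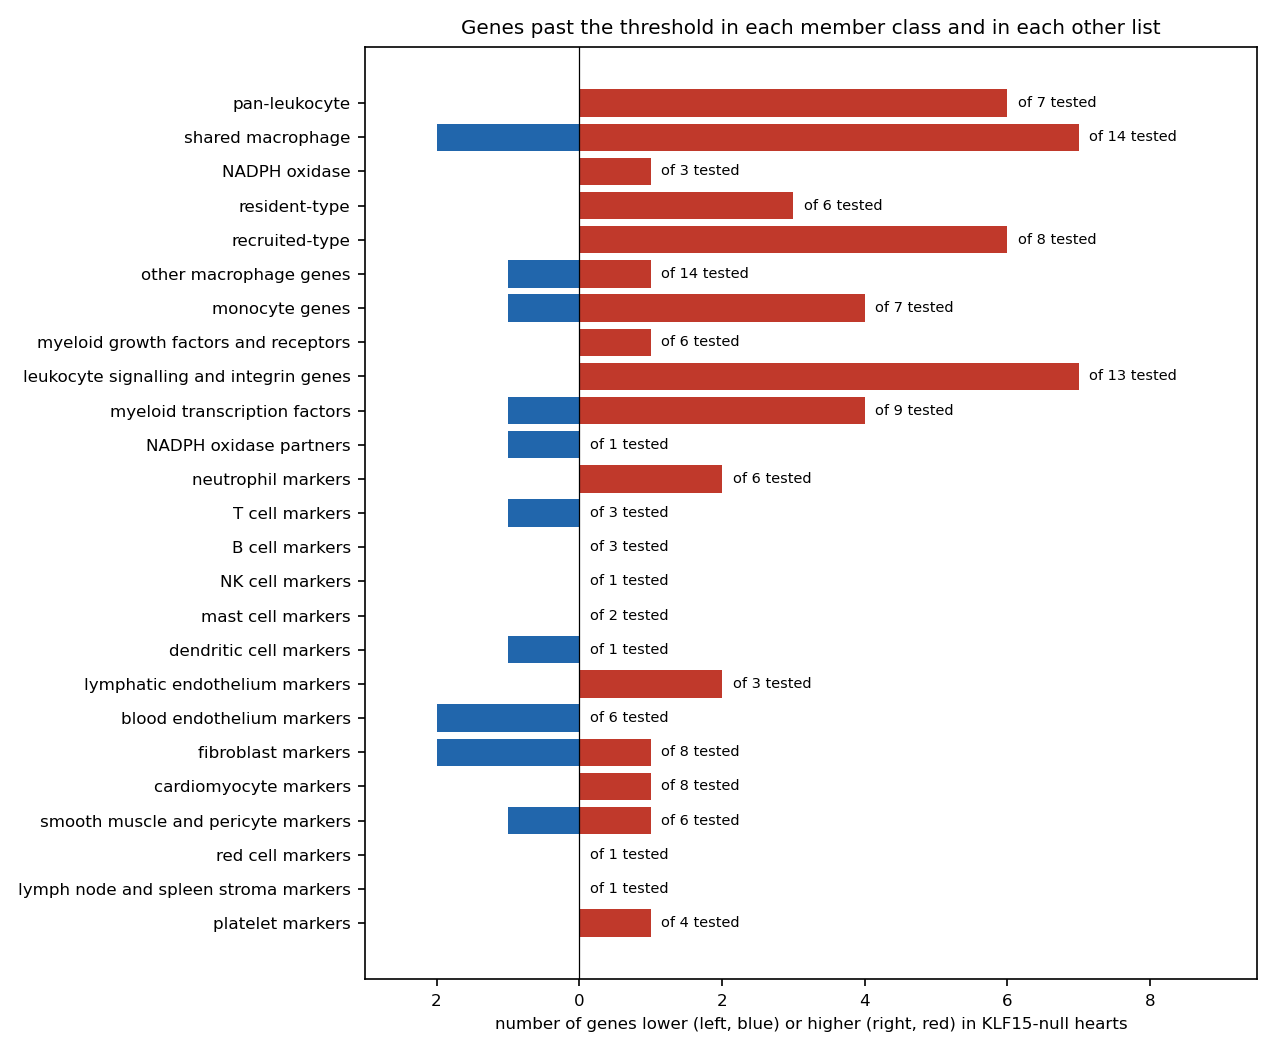
Number of genes lower (left, blue) and higher (right, red) in KLF15-null hearts in each member class and in each other list, with the number tested beside each bar. The longest red bars are the 7 shared macrophage genes and the 7 leukocyte signalling and integrin genes. No bar is drawn for B cell, NK cell, mast cell, red cell, and lymph node and spleen stroma markers.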

How the data were processed

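The authors deposited 1 log2 signal for each probe set and array (range 3.20 to 14.28, from which the log scale was read). Per the labels' protocols, Trizol RNA was labelled with the Affymetrix one-cycle kit, and GCOS is named in the submitters' processing notes with no version. How probes were summarized and scaled is not stated there. Values were used as deposited, because array medians differed by less than the limit of 0.15. Genes were named through the platform annotation, and all 42 member symbols matched RefSeq by Entrez number. With limma 3.58.1 in R 4.3.3 the groups were compared over 13576 of 22626 probe sets (mean at or above the 40th percentile), with an intensity trend, two-sided, and Benjamini-Hochberg adjustment over all of them. The procedure was tested on simulated data. Values on every array are given for up to 20 called members with groups apart, the largest of each class and those whose probe sets disagree. Members and lists were chosen with earlier results of these data known. Replicate numbers were not taken as pairs (correlations of deviations -0.11, 0.0012 and 0.19). Alternatives covered the filter, scaling, probe set choice, trend, weights, threshold, replicate block and each array left out. The number of arrays limits the precision.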

Additional observations from a re-analysis of the deposited data

Results flagged for a closer look

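In 7 of 49 tested member probe sets 1 WT array lay far from the other 3, by the gap to its nearest neighbour relative to the range. By chance about 1 in 20 groups has such an array, and 13% of all tested probe sets had one here. WT array 4 was the high one in 5: Tyrobp at 7.96 (others 7.32 to 7.42), Rac2 at 6.80 (6.50 to 6.52), Fcgr2b at 8.92 (8.60 to 8.65), the _x_at probe set of C1qb with the smaller difference (0.59) at 7.46 (6.95 to 7.04) and an _s_at probe set of Laptm5 at 7.17 (7.04 to 7.06). WT array 3 was low for Ncf1 at 5.59 (5.99 to 6.04). It was high for Trem2 at 6.41, where the other 3 shared 1 value of 6.31.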

How the results depend on the processing

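The count of higher members lay between 18 (of 25 tested, with the filter at the 60th percentile) and 26 (of 38, without WT array 4), against 23 of 38. In these fits, in the same order, 30.5%, 22.5% and 25.5% of all tested genes were higher. The share of all tested genes called higher lay between 18.5% (no filter) and 34.1% (array weights). The count of lower members, 2, was 1 with no filter, with each array centred on its median and with the replicate block, and between 1 and 2 when single arrays were left out. The call lost was that of C1qb wherever the count was 1. With the replicate block 25 members were higher, against 20.7% of all tested genes higher and 16.4% lower in that fit. The replicate numbers were not taken as pairs. Laptm5 turned to -0.14 when the probe set brightest in WT stood for it and to -0.074 without KLF15-null array 1 (range over single arrays -0.074 to 1.24), because another probe set then represented it. Low signal left 4 members untested and may limit the size of the differences of Coro1a, Ms4a6d and Clec4n. The same may hold for Ncf4 and Spi1, whose WT means lay near the filter level, and background was not measured.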
